A study of Drosophila melanogaster with 36 samples.

Results

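The proteasome subunit genes of Drosophila melanogaster are those whose symbol is Prosalpha, Prosbeta, Rpn or Rpt followed by a digit, and 47 of the 17562 genes counted matched. Of these, 32 are the subunits built into the proteasome of most cells. They comprise 7 alpha and 7 beta subunits of the 20S core and 6 Rpt and 12 Rpn subunits of the 19S regulatory particle. The other 15 carry a T or an R after the digit and are copies of subunit genes. The rule reads the symbol and no measured value, but the family was picked with earlier results of these data known.

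The proteasome degrades proteins that have been tagged with ubiquitin. Its 20S core is a barrel of stacked rings, in which alpha rings at the ends control entry and beta rings between them cut the substrate. The 19S particle caps the barrel, where the Rpt ATPases form a ring that unfolds and feeds in the substrate, and the Rpn subunits bind ubiquitin, remove it and hold the particle together. Several of the T copies are known from the fly testis, where they replace the standard subunit.

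RNA was sequenced from brains of female flies carrying a GAL4 driver with a UAS-GFP reporter, at 70 and 5 days of age. The drivers GMR56F03 and GMR10E12 are expressed mainly in ensheathing glia, which wrap the neuropil and take up debris, and GMR86E01 is expressed in astrocyte-like glia. Pools of brains were dissociated in actinomycin D. Each driver and age has 3 libraries of sorted GFP+ cells without DAPI-stained dead cells and 3 of the unsorted suspension, called whole brain. That makes 36 libraries in 12 groups. The study states that the suspensions came from the same brains, but not which libraries share a pool. All groups carry a driver and the reporter. Whole brain therefore stands for all cell types together, glia included. In these bulk samples, fewer cells of a type and less RNA per cell cannot be told apart.

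Total counts ranged from 912285 to 17060052 per library. The pan-glial gene repo had 904 to 2287 normalised counts in sorted ensheathing glia and 925 to 3196 in sorted astrocyte-like glia, against 163 to 550 in whole brain, and all 15 neuronal markers were lower in both sorted types than in whole brain. All 5 astrocyte-like markers were also present in ensheathing glia, and all 5 hemocyte (blood cell) markers were higher in both sorted types than in whole brain. Ensheathing markers summed to 4710 to 15332 normalised counts in ensheathing glia, 3980 to 10977 in astrocyte-like glia and 1952 to 4342 in whole brain. At day 70, GMR10E12 ensheathing glia had 8277 to 11889 of surface glia markers, against 432 to 812 in whole brain of that line. Photoreceptor markers there had 27306 to 40524, against 11387 to 13744. In GMR56F03 surface glia markers had 1861 to 2097, against 668 to 956, and photoreceptor markers 5955 to 11316, against 22929 to 36888. One library stood apart. The GMR10E12 whole brain library of day 70, replicate 1, was the shallowest (912285 counts) and its subunit values scattered, with 1238 normalised counts of Prosalpha2, against 215 to 283 in the other 8 whole brain libraries of day 70, and 24.9 of Prosbeta1, against 133 to 291. Several results that rest on it are given with and without it.

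All 32 subunits had counts in all 36 libraries. Normalised counts are counts divided by the DESeq2 size factor of the library, and the level per length is the normalised count per kilobase of annotated exon. By this level the subunits spanned a 4.14-fold range in ensheathing glia, a 5.17-fold range in astrocyte-like glia and a 3.45-fold range in whole brain. Prosbeta5, the subunit with chymotrypsin-like activity, was the highest in each, at a median of 559 normalised counts per kilobase in ensheathing glia and 565 in astrocyte-like glia, against 386 in whole brain. Rpn2, a large scaffold subunit of the 19S particle, was the lowest, at 135 in ensheathing glia and 109 in astrocyte-like glia, against 112 in whole brain, with both ages together. In whole brain of day 70 alone Rpn7 and Rpn12 were lower (112 and 118.3, against 119.9 for Rpn2). Ranks between these ends differed between the ages, and Prosalpha3, an alpha ring subunit, ranked 2 in ensheathing glia at day 70 but 7 at day 5. Neighbours in the order overlapped in their ranges over libraries. Their order also depends on annotated exon length.

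**Figure D1:**
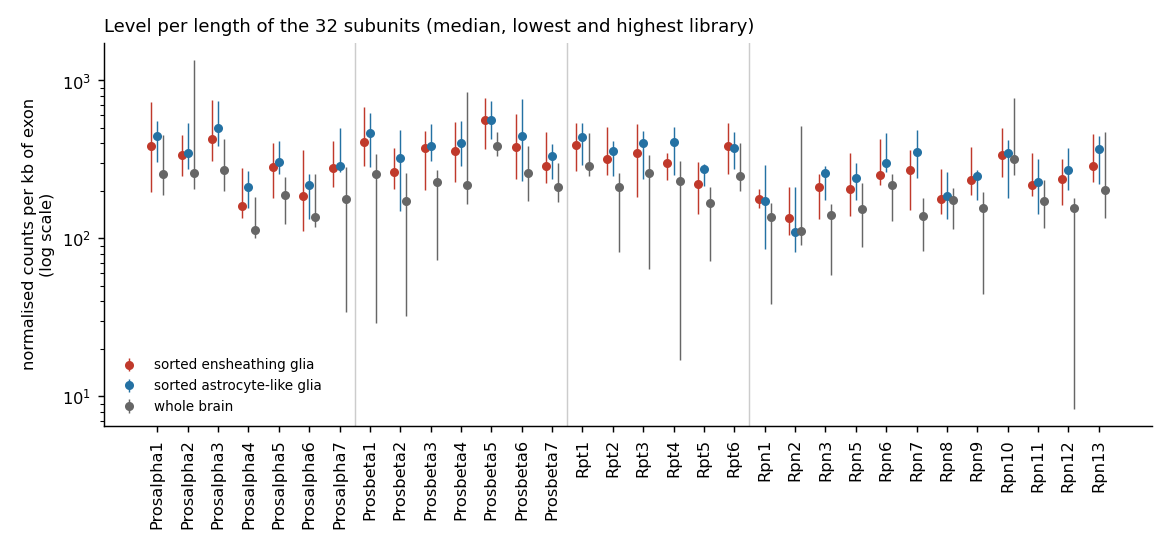
Normalised counts per kilobase of exon on a log axis for the 32 subunits, ordered by class, in sorted ensheathing glia (12 libraries), sorted astrocyte-like glia (6) and whole brain (18). Points are medians and lines run from the lowest to the highest library. Prosbeta5 has the highest median in each tissue.

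The first question was whether subunit RNA differed between old and young ensheathing glia. Of the 33 members that passed the filter on low counts, which include all 32 subunits, 11 rose at day 70 relative to day 5 and none fell (adjusted p below 0.05 in edgeR, by its quasi-likelihood test and the Benjamini-Hochberg method across all 9265 genes tested). Over all genes, 9.41% rose and 8.82% fell. In 7 of the 33 all day 70 libraries lay above all day 5 libraries and in none below, where 4.19% and 3.37% of all genes did so. The median log2 difference was 0.39 over the 32 subunits and 0.01 over all genes tested, and 31 of the 32 were positive. The exception was Rpn1, a scaffold that holds ubiquitin receptors, at -0.05. At an unadjusted p below 0.05, 23 members passed, all of them positive, and 2897 of all 9265 genes tested passed in either direction.

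Summed over the 47 genes, ensheathing glia held 13194 to 16192 normalised counts at day 70 (14585 ± 1198, SD, n = 6), against 9958 to 11897 at day 5 (10924 ± 658, SD, n = 6). The 2 ages did not overlap in either driver line. As a share of all counts, the genes took 0.258% to 0.299% at day 70, against 0.196% to 0.237% at day 5.

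**Figure D2:**
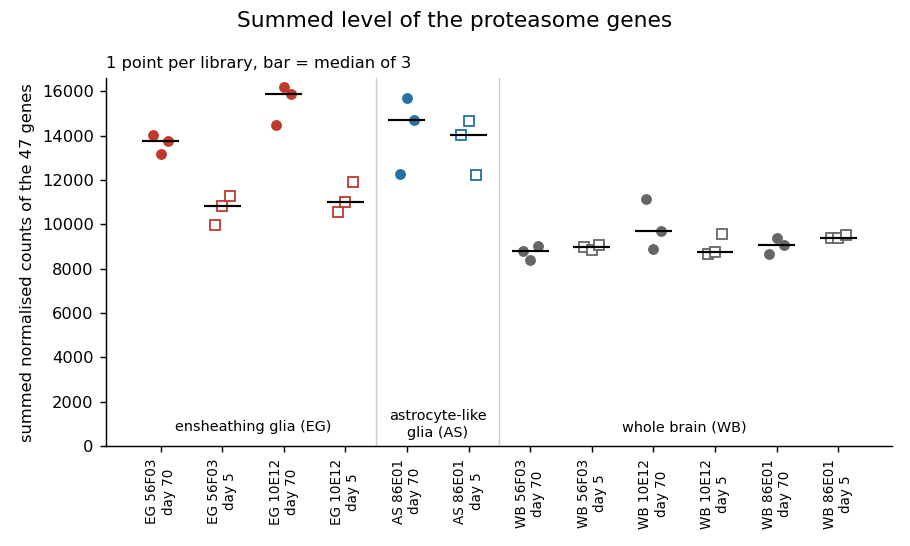
Summed normalised counts of the 47 genes in every library of the 12 groups, with day 70 to the left of day 5 for each tissue and driver line. Points are libraries (filled circles day 70, open squares day 5) and bars are medians of 3. The day 70 libraries of ensheathing glia (13194 to 16192) lie above those of day 5 (9958 to 11897), while the ages overlap in both other tissues.

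In the alpha ring, which gates the core, 3 of 7 subunits rose in ensheathing glia and the class median was 0.42. Prosalpha3 (FBgn0261394, chromosome arm 2R, 20994900 to 20996118 in the dm6 genome) had the smallest adjusted p of the members. It had 553, 513 and 491 normalised counts at day 70 in GMR56F03, against 313, 302 and 311 at day 5, and 413, 584 and 735 at day 70 in GMR10E12, against 313, 358 and 415 at day 5. The ages were apart in GMR56F03 and touched in GMR10E12, where the lowest day 70 library lay just under the highest of day 5. The log2 difference was 0.67 ± 0.14 (SE), with an adjusted p of 0.00526 in edgeR.

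Prosalpha2 (FBgn0086134, 3R, 12431321 to 12432556) had 382, 332 and 374 normalised counts at day 70 in GMR56F03, against 229, 235 and 282 at day 5. In GMR10E12 it had 382, 406 and 416 at day 70, against 228, 293 and 245 at day 5. All 6 libraries of day 70 lay above all 6 of day 5 (log2 difference 0.56 ± 0.13 (SE), adjusted p 0.00693 in edgeR). Prosalpha6 had the largest difference of the 11, 0.74 ± 0.19 (SE) on the log2 scale, and its range of 187 to 390 normalised counts at day 70 overlapped that of 119 to 211 at day 5.

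In the beta ring, 4 of 7 subunits rose and the class median was 0.46. Prosbeta4 (FBgn0032596, 2L, 16731180 to 16732133), which has no catalytic site, had 300.1, 316 and 314 normalised counts at day 70 in GMR56F03, against 218, 208 and 280 at day 5. In GMR10E12 it had 352, 432 and 443 at day 70, against 211, 185 and 219 at day 5. The ages did not overlap, and the log2 difference was 0.65 ± 0.15 (SE) with an adjusted p of 0.00939 in edgeR. Prosbeta3 and Prosbeta6, also without a catalytic site, rose by log2 differences of 0.53 and 0.50.

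The 3 catalytic subunits did not all pass the test. Prosbeta5 (FBgn0029134, 2R, 10819978 to 10821178) had 733, 717 and 759 normalised counts at day 70 in GMR56F03, against 419, 490 and 583 at day 5, and 668, 699.9 and 884 at day 70 in GMR10E12, against 517, 541 and 604 at day 5. No day 70 library overlapped a day 5 library (log2 difference 0.46 ± 0.12 (SE), adjusted p 0.0195 in edgeR). Of its 1139 exon bases, 81 overlap Lsm10 on the opposite strand, and whether counting used strand is not stated.

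Prosbeta1, the caspase-like subunit, had 395, 386 and 413 normalised counts at day 70 in GMR56F03, against 244, 270 and 309 at day 5, and 306, 577 and 366 at day 70 in GMR10E12, against 261, 328 and 397 at day 5. The ages were apart in GMR56F03 and overlapped in GMR10E12. Its log2 difference of 0.40 ± 0.17 (SE) had an adjusted p of 0.126 in edgeR. Prosbeta2, the trypsin-like subunit, had 370, 261 and 302 normalised counts at day 70 in GMR56F03, against 241, 239 and 253 at day 5, and 287, 386 and 294 at day 70 in GMR10E12, against 240, 214 and 295 at day 5. Only the GMR10E12 libraries overlapped, and its log2 difference was 0.32 ± 0.14 (SE) with an adjusted p of 0.153 in edgeR.

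In the 19S particle 4 of 18 subunits rose, against 7 of 14 in the 20S core, and the medians were 0.30 and 0.44 on the log2 scale. The difference between core and particle was not tested. The ratio of summed 20S to summed 19S normalised counts was 0.568 to 0.715 in ensheathing glia at day 70, against 0.478 to 0.623 at day 5, and these ranges overlap. Among the 6 Rpt ATPases 1 rose, Rpt1, by a log2 difference of 0.42 ± 0.14 (SE). Among the 12 Rpn subunits 3 rose. Rpn5, a subunit of the lid that covers the particle, rose by 0.59, Rpn9, also of the lid, by 0.48, and Rpn2 by 0.40. Rpn11, which removes ubiquitin chains, and Rpn10 and Rpn13, which bind them, did not pass, with log2 differences of 0.18, 0.22 and 0.38.

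**Figure D3:**
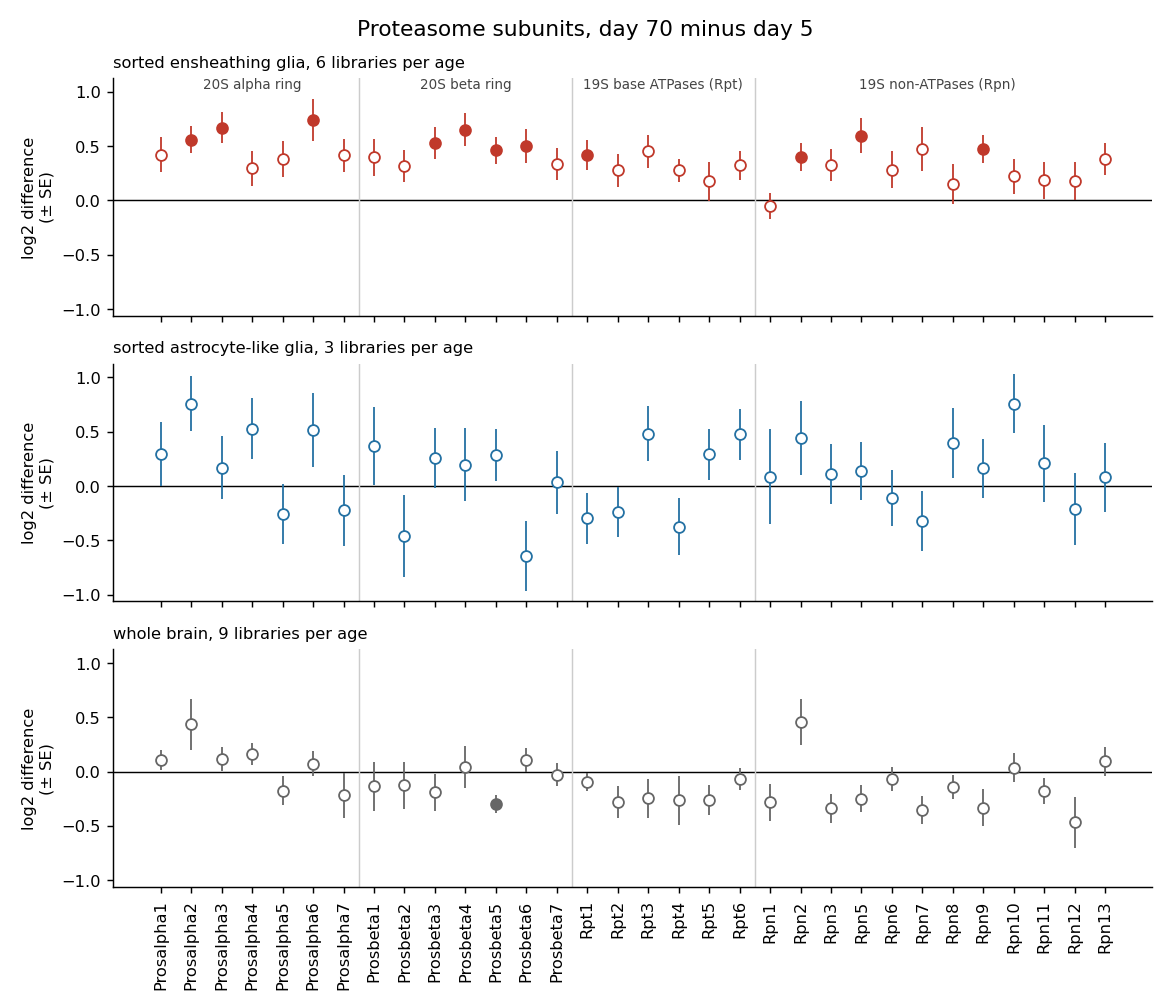
The log2 difference between day 70 and day 5 for each of the 32 subunits in sorted ensheathing glia (6 libraries per age), sorted astrocyte-like glia (3 per age) and whole brain (9 per age), from edgeR. Lines are standard errors, and filled points have an adjusted p below 0.05. Of 32 points, 31 lie above 0 in ensheathing glia, 22 do so in astrocyte-like glia, and whole brain has 10.

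Tested 1 driver line at a time, with 3 libraries per age, 3 members rose in GMR56F03 (Prosalpha3, Prosbeta3 and Rpn2, where 9.43% of all genes rose and 5.6% fell) and 2 in GMR10E12 (Prosalpha6 and Prosbeta4, where 5.19% rose and 4.39% fell, or 9.58% in either direction). None fell in either. Of the 32 subunits, 30 were positive in both lines, with a median log2 difference of 0.32 in GMR56F03 and 0.47 in GMR10E12. The age effect in GMR56F03 minus that in GMR10E12 did not pass the test for any of the 33 members tested, of which 1 had an unadjusted p below 0.05, while 0.453% of all genes were higher and 0.237% lower in edgeR, and DESeq2 also called none. Of all 9265 genes in that comparison, 1266 had an unadjusted p below 0.05 in edgeR. The line-by-line counts rest on few libraries, and they ran from 1 to 6 in GMR56F03 and from 0 to 1 in GMR10E12 when 1 library was left out.

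Of the 11 subunits that rose in the combined test, 6 passed whichever single library was left out (Prosalpha2, Prosalpha3, Prosalpha6, Prosbeta4, Prosbeta5 and Rpn5). Without GMR10E12 day 5 replicate 1, or without GMR56F03 day 5 replicate 1, 7 were called. All of them were also in the list of 11.

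Markers of other cells moved with age in the same libraries. In ensheathing glia all 5 astrocyte-like markers fell (summed level of 10215 to 15847 normalised counts at day 70, against 23235 to 39335 at day 5). Of the 5 ensheathing markers 3 fell and 1 rose, and their summed level did not overlap between ages (4710 to 9260, against 9620 to 15332). The pan-glial gene repo fell by 0.82 on the log2 scale. Of the 15 neuronal markers 2 rose and 5 fell (summed level of 12485 to 17815, against 17700 to 27281). None of the 5 hemocyte markers passed the test (3222 to 15406, against 3368 to 12984), and no marker of these lists was at 0 in either age. Of the 3 fat body markers tested 1 rose (summed level of the list 1126 to 31467 at day 70, against 759 to 1559 at day 5), with the highest value in GMR10E12 replicate 1 of day 70. Lsp2 of that list was at 0 in all 6 libraries of day 5. Of the 3 surface glia markers 1 rose, and their summed level did not overlap between ages in either line (1861 to 2097 at day 70, against 1302 to 1460 at day 5, in GMR56F03, and 8277 to 11889, against 4933 to 5711, in GMR10E12). Of the 4 photoreceptor markers 1 rose, and their summed level did not overlap either (5955 to 11316 at day 70, against 1900 to 3694 at day 5, in GMR56F03, and 27306 to 40524, against 15178 to 24514, in GMR10E12). Of the 3 cortex glia markers 1 fell. The part of these shifts in the subunit result was not tested.

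In astrocyte-like glia, with 3 libraries per age, none of the 33 members tested passed at an adjusted p below 0.05, while 2.8% of all genes rose and 3.65% fell (6.44% in either direction). At an unadjusted p below 0.05, 2 members passed in edgeR and 2 in DESeq2, which also called none. Over all genes, 1871 of 8585 did so in edgeR and 2316 of 9353 in DESeq2. The median log2 difference was 0.17 over the 32 subunits and 0.11 over all genes, with 22 of 32 positive. The summed level was 12252, 15682 and 14697 normalised counts at day 70, against 14048, 14668 and 12217 at day 5, so the ages overlapped. In units of total counts, the summed level at day 70 was 1.41-fold that of day 5, and as a share of all counts the ages did not overlap (0.237% to 0.314% at day 70, against 0.187% to 0.211% at day 5). With total counts as the scale, the median of all genes shifted by 0.38 on the log2 scale, and the members' median less that of all genes stayed at 0.06 under both. On that scale 2 members rose.

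Single subunits differed in sign in astrocyte-like glia, and none of these differences passed the test. Prosbeta6, a beta ring subunit, had 218, 414 and 343 normalised counts at day 70, against 719, 445 and 426 at day 5, and all of the day 70 values lay below those of day 5. Its log2 difference of -0.64 ± 0.32 (SE) had an adjusted p of 0.290 in edgeR. Prosalpha2 had 498, 364 and 427 at day 70, against 271, 251 and 264 at day 5, with a log2 difference of 0.76 ± 0.25 (SE) and an adjusted p of 0.118 in edgeR. In all, 4 members lay wholly higher at day 70 and 3 wholly lower, where 16.1% and 14.1% of all genes did so. For the catalytic subunits, Prosbeta1 had 394, 505 and 394 at day 70, against 243, 531 and 252 at day 5, Prosbeta2 had 154, 350 and 320, against 504, 415 and 268, and Prosbeta5 had 659, 849 and 628, against 742, 591 and 486. None of the catalytic subunits separated the ages.

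In the same libraries all 5 astrocyte-like markers fell (summed level of 19305 to 34361 normalised counts at day 70, against 127498 to 144751 at day 5) and 8 of the 15 neuronal markers rose (15492 to 22463, against 5946 to 10785). Of the 5 hemocyte markers 4 fell (3293 to 4748, against 19382 to 25109). No marker of these 3 lists was at 0. The part of these shifts in the subunit values was not tested.

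In whole brain, 1 of the 35 members tested fell with age and none rose, while 11.0% of all genes rose and 10.4% fell. The one that fell was Prosbeta5, with 376, 411 and 467 normalised counts at day 70 (lowest, median and highest of 9 libraries), against 407, 484 and 538 at day 5. The ranges overlap, and the log2 difference was -0.30 ± 0.08 (SE) with an adjusted p of 0.0142 in edgeR. Prosbeta5 did not pass with total counts as the scale, which shifted the median of all genes by 0.15, or in 1 fit over all 36 libraries. The median over the 32 subunits was -0.14, with 10 positive, against 0.02 over all genes tested.

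The summed level in whole brain was 8406, 9039 and 11156 normalised counts at day 70 (lowest, median and highest), against 8650, 9055 and 9547 at day 5. The highest belonged to the shallow GMR10E12 library. Without that library 5 subunits fell (Prosbeta5, Rpn3, Rpn7, Rpn9 and Rpn12), by 0.23 to 0.35 on the log2 scale in edgeR, and 4 without the 2 whole brain libraries under 2000000 counts (Prosbeta5, Rpn3, Rpn7 and Rpn12). Line by line, none of the members passed in GMR56F03, GMR10E12 or GMR86E01 (3, 0 and 4 at an unadjusted p below 0.05 in edgeR, and none called by DESeq2), while 12.5%, 0.0358% and 6.13% of all genes changed in either direction. Over all genes, 2461 of 8671, 1117 of 8378 and 2099 of 8715 had an unadjusted p below 0.05 in edgeR. In GMR56F03 5.78% of all genes rose and 6.75% fell, and in GMR86E01 2.31% rose and 3.82% fell.

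For the other catalytic subunits in whole brain, Prosbeta1 had 24.9, 225 and 291 normalised counts at day 70 (lowest, median and highest), against 191, 216 and 242 at day 5. Prosbeta2 had 33.2, 176 and 267 at day 70, against 146, 186 and 215 at day 5. Both lowest values came from the shallow library, and the log2 differences of -0.14 ± 0.22 (SE) and -0.12 ± 0.22 (SE) changed sign with total counts as the scale and without the libraries under 2000000 counts. In whole brain all 5 astrocyte-like markers also fell with age, and all 3 fat body markers tested rose (summed level of 1401 to 26092 normalised counts at day 70, against 794 to 1752 at day 5). Of the 15 neuronal markers 7 fell and 2 rose (48711 to 75913, against 51956 to 63531). The highest day 70 sum was that of the shallow library, and the other day 70 libraries reached at most 59900. The germ line marker vas rose. Their part in the subunit values was not tested.

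The age effects of the tissues were compared directly by an interaction test. The age effect in ensheathing glia minus that in whole brain of the same 2 driver lines was larger than 0 for Prosbeta5 alone among 35 members (1.09% of all genes were higher and 1.94% lower, 3.03% in all). Its difference of effects was 0.72 ± 0.17 (SE) on the log2 scale, with an adjusted p of 0.0195 in edgeR. The median difference over the 32 subunits was 0.47, with 31 positive, and that of all genes was -0.02. Without the shallow whole brain library 4 members passed (Prosbeta4, Prosbeta5, Rpn5 and Rpn9), and without GMR10E12 whole brain day 5 replicate 3 none did. The call of Prosbeta5 was also lost with total counts as the scale and without a filter on low counts. Under DESeq2's Wald test 5 passed.

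The age effect in ensheathing glia minus that in astrocyte-like glia was larger than 0 for Prosbeta6 alone among 35 members (5.09% of all genes were higher and 6.17% lower). Prosbeta6 (FBgn0002284, 3L, 16609400 to 16610418) had 357, 363 and 402 normalised counts at day 70 in GMR56F03, against 223, 329 and 339 at day 5, and 496, 575 and 521 at day 70 in GMR10E12, against 297, 267 and 381 at day 5. In both lines day 70 lay above day 5, where astrocyte-like glia had the opposite order. The difference of effects was 1.18 ± 0.32 (SE) on the log2 scale, with an adjusted p of 0.0223 in edgeR. The call was lost without astrocyte-like day 5 replicate 1, without day 70 replicate 1, without the libraries under 2000000 counts, and with total counts as the scale, under which Rpn10 alone passed, in the opposite direction. That scale shifts the median of all genes by -0.41 and turns the members' median from 0.32 to -0.10, while the members' median less that of all genes was 0.37 under both.

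The age effect in astrocyte-like glia minus that in GMR86E01 whole brain did not pass for any of 35 members in edgeR (4 at an unadjusted p below 0.05), where 2.97% of all genes were higher and 1.31% lower (4.28% in all), and DESeq2 called 1. Of all 9369 genes tested, 1869 had an unadjusted p below 0.05 in edgeR.

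**Figure D4:**
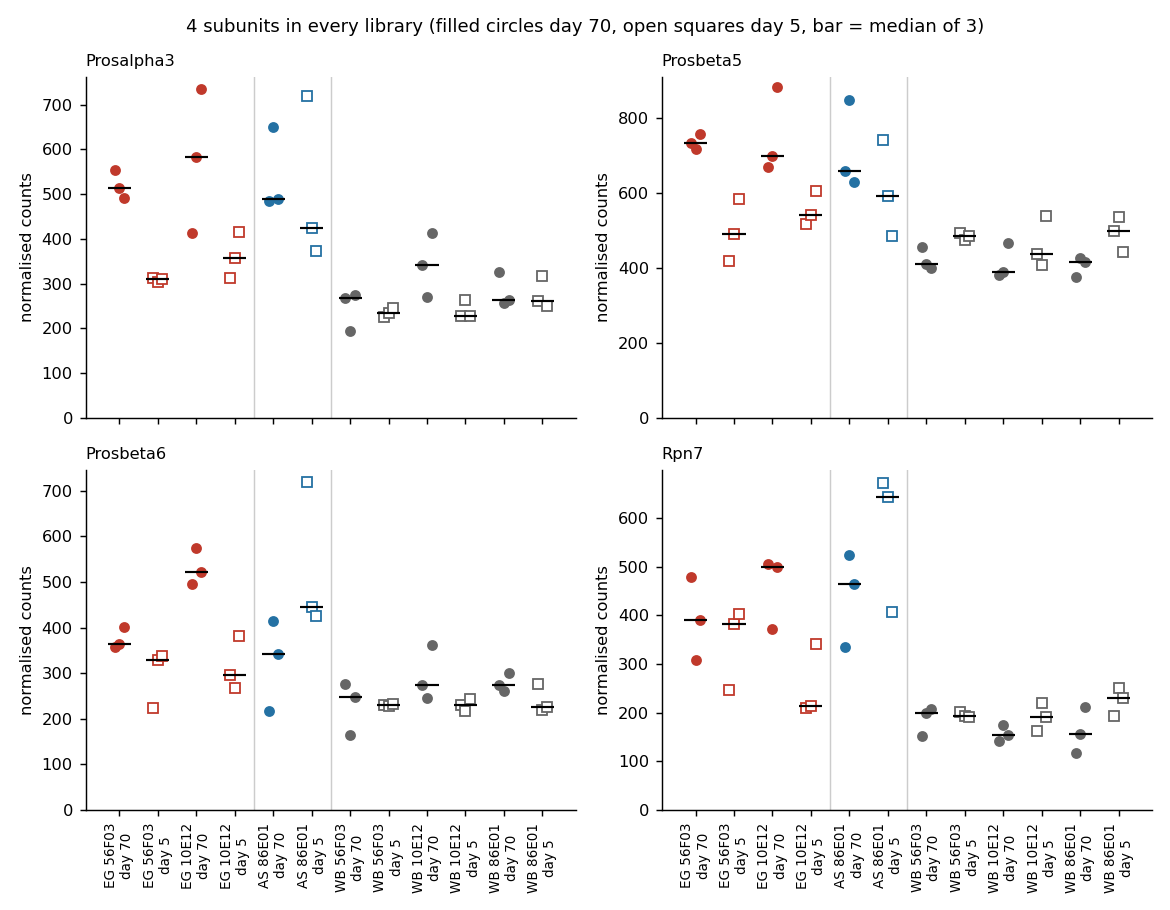
Normalised counts of Prosalpha3, Prosbeta5, Prosbeta6 and Rpn7 in every library of the 12 groups, with day 70 (filled circles) to the left of day 5 (open squares) and the median of 3 as a bar. Prosbeta5 is higher at day 70 than at day 5 in both ensheathing lines, at 668 to 884 against 419 to 604. Rpn7 is higher in each sorted group than in whole brain of the same line by its median.

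Averaged over both ages, most subunits were higher in sorted glia than in whole brain. In ensheathing glia 26 of 35 members tested were higher and 1 was lower than in whole brain of the same lines, while 25.8% of all genes were higher and 26.1% lower (52.0% in all). The median log2 difference was 0.47 over the 32 subunits and -0.05 over all genes. By class, 6 of 7 alpha, 7 of 7 beta, 4 of 6 Rpt and 9 of 12 Rpn subunits were higher. Leaving out 1 library gave 26 to 29 calls, and 24 of the 27 calls passed in each setting in which the gene was tested. The filter of at least 10 counts in every library left 7 of the 27 untested. With the replicate number as a block, 24 members were higher and 2 lower.

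Rpn7 (FBgn0028688, 3R, 22460662 to 22462054), a lid subunit, had the largest difference. It had 210, 377 and 506 normalised counts in ensheathing glia (lowest, median and highest of 12 libraries), against 141, 191 and 221 in whole brain of the same lines. Only the 2 lowest ensheathing libraries reached the whole brain range, and the log2 difference was 0.94 ± 0.15 (SE) with an adjusted p of 6.95e-06 in edgeR. Of its 1393 exon bases, 88 overlap CG34376 on the opposite strand. The subunits that did not pass were Prosalpha2, Rpt3, Rpt4, Rpn2, Rpn8 and Rpn10, at 0.14, 0.37, 0.41, 0.17, 0.14 and -0.01 on the log2 scale. Without the shallow GMR10E12 whole brain library, Prosalpha2, Rpn2 and Rpt4 passed and Rpn5 lost its call. Without the libraries under 2000000 counts, Prosalpha2, Rpn2, Rpt3 and Rpt4 passed and Prosalpha6 lost its call. Of the members, 2 lay wholly higher in ensheathing glia (Rpn1 and Rpn9), where 4.88% of all genes did so.

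Averaged over both ages, the catalytic subunits were all higher in ensheathing glia than in whole brain of the same lines. Prosbeta1 differed by 0.75 ± 0.20 (SE) on the log2 scale. The differences of Prosbeta2 and Prosbeta5 were 0.61 ± 0.19 (SE) and 0.47 ± 0.11 (SE). Their adjusted p in edgeR were 0.00335, 0.00765 and 0.00117. Per kilobase, ensheathing glia held 587 to 776 normalised counts of Prosbeta5 at day 70, against 330 to 410 in whole brain. At day 5 these ranges overlapped, at 367 to 531 against 357 to 472. Whole brain in these ranges covers all driver lines.

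In astrocyte-like glia 27 of 35 members tested were higher than in GMR86E01 whole brain and none lower, while 23.8% of all genes were higher and 21.1% lower (44.9% in all). Of the 27, 26 were among the 32 subunits, and the other was the copy Rpt4R, which passed the filter through the astrocyte-like libraries alone. The median log2 difference over the 32 was 0.61, against -0.04 over all genes. Rpn7 again had the largest difference among the 32 subunits, with 335, 524 and 464 normalised counts at day 70 and 672, 643 and 406 at day 5 in astrocyte-like glia, against 117, 156 and 213 at day 70 and 194, 250 and 231 at day 5 in whole brain. The tissues did not overlap (log2 difference 1.38 ± 0.19 (SE), adjusted p 7.84e-05 in edgeR). In all, 13 members lay wholly higher, where 13.8% of all genes did so. The subunits that did not pass were Prosalpha6, Rpn1, Rpn2, Rpn8, Rpn10 and Rpn11, at -0.09 to 0.47 on the log2 scale. Rpn2, Rpn8 and Rpn10 were thus not called in either sorted type, although Rpn2 passed in ensheathing glia without the shallow whole brain library. The catalytic subunits Prosbeta1, Prosbeta2 and Prosbeta5 were higher in astrocyte-like glia by 0.74, 0.93 and 0.54 on the log2 scale, with adjusted p of 0.0116, 0.00477 and 0.0127 in edgeR. With total counts as the scale Prosbeta1 and Prosbeta5 lost their call (adjusted p of 0.107 and 0.273 in edgeR).

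With total counts as the scale the median of all genes shifted by -0.28 in this comparison and 10 members were called, while the members' median less that of all genes was 0.64 under both scales. In the same comparison all 15 neuronal markers were lower and all 5 hemocyte markers were higher (summed level of 3293 to 25109 normalised counts in astrocyte-like glia, against 641 to 2558 in all whole brain libraries). In ensheathing glia the hemocyte markers summed to 3222 to 15406. The part of these cells in the subunit differences was not tested.

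**Figure D5:**
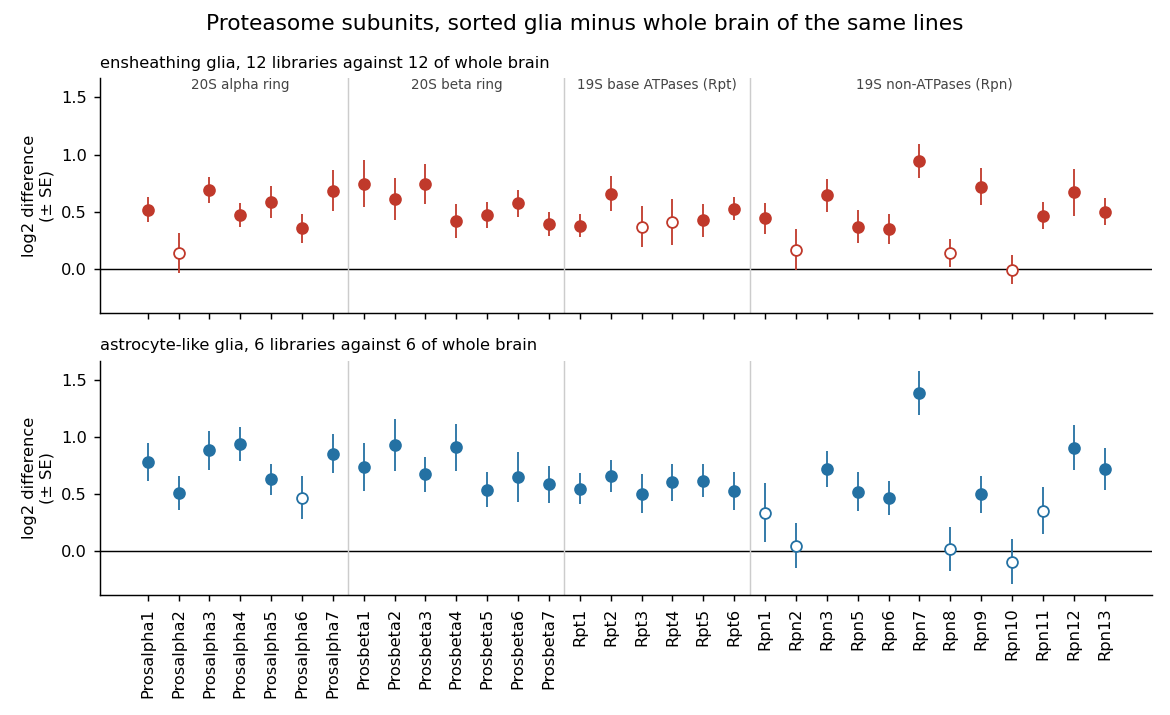
The log2 difference of each of the 32 subunits between sorted ensheathing glia and whole brain of the same lines (12 libraries each) and between sorted astrocyte-like glia and whole brain of GMR86E01 (6 each), both ages together, from edgeR. Lines are standard errors and filled points have an adjusted p below 0.05. Rpn7 is highest in both (0.94 and 1.38), and Rpn2, Rpn8 and Rpn10 are open in both.

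Between the sorted types none of 35 members passed (2 at an unadjusted p below 0.05 in edgeR, and 1 called by DESeq2), where 1.41% of all genes were higher and 2.14% lower in ensheathing glia (3.54% in all). Of all 9592 genes tested, 1678 had an unadjusted p below 0.05 in edgeR. The median log2 difference over the 32 subunits was -0.15, with 8 positive. Cell type and driver line cannot be told apart here. The fit had no term for line, so the difference between GMR56F03 and GMR10E12 was part of its spread. At day 5 the summed level was 9958 to 11897 normalised counts in ensheathing glia, against 12217 to 14668 in astrocyte-like glia, and at day 70 the ranges overlapped. As a share of all counts the day 5 ranges overlapped as well, at 0.196% to 0.237% in ensheathing glia, against 0.187% to 0.211% in astrocyte-like glia. Between whole brain of the ensheathing lines and whole brain of GMR86E01 none of 35 members passed (0 at an unadjusted p below 0.05 in edgeR, none by DESeq2), where 0.0829% of all genes were higher and 0.0311% lower. Of the 9650 genes tested there, 768 had an unadjusted p below 0.05 in edgeR.

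The 15 copies were nearly absent. Together they held 1307 of 510258 member counts, or 0.256%. Prosalpha4T2 and Prosbeta4R1 had 0 counts in all 36 libraries, which allows up to 3 counts in a library, and Prosalpha6T had 1. Prosbeta4R2, Prosbeta5R1 and Prosbeta5R2 had 3, 4 and 6 counts in all. All 4 counts of Prosbeta5R1 and 2 of the 3 of Prosbeta4R2 came from the shallow GMR10E12 whole brain library. Prosbeta2R1 had 23, Prosalpha3T had 27, Rpn12R had 51, Prosbeta2R2 had 62 and Rpt6R had 71 counts over all libraries. Of the 5 germ line markers, bam and nos were at 0 in every sorted library, while aly, can and vas had counts in some libraries of both sorted types. In whole brain the germ line markers summed to 166 normalised counts in the shallow GMR10E12 library and to at most 52.3 in any other. Reads that a copy shares with its parent gene could have been assigned to either or dropped.

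Of the other 4 copies, Rpn13R, a copy of the ubiquitin receptor gene Rpn13, had the most counts, 498 in 31 libraries. In astrocyte-like glia it had 0, 2 and 44 counts at day 70 and 0, 8 and 0 at day 5, against 21, 30 and 28 at day 70 and 20, 15 and 39 at day 5 in whole brain of the same line. It had the lowest log2 difference there, -1.99 ± 1.03 (SE), which ran from -3.16 to -1.66 when 1 library was left out, and it was not called. With counts in only 3 of 6 astrocyte-like libraries, Rpn13R passed the filter through the whole brain libraries. Its difference in that comparison is therefore a description and no test. In ensheathing glia it had 90 counts over 10 of 12 libraries, against 201 over 12 of 12, and it did not pass. Prosalpha4T1, an alpha ring copy, was the one member called lower in ensheathing glia. It had 35 counts over 8 of 12 libraries, against 101 over 10 of 12 whole brain libraries of the same lines (log2 difference -1.79 ± 0.63 (SE)). Rpt3R, a copy of an ATPase gene, had the lowest difference, with 42 counts over 6 of 12 ensheathing libraries (at most 19 in one), against 96 over 11 of 12 (at most 22), and a log2 difference of -1.82 ± 0.88 (SE). Both passed the filter with whole brain included but not in ensheathing glia alone, so these differences are descriptions and no test.

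Rpt4R (FBgn0036224, 3L, 11941912 to 11943485), a copy of the ATPase gene Rpt4, had the opposite pattern. In astrocyte-like glia it had 0, 21 and 64 counts at day 70 and 0, 0 and 24 at day 5, against 0, 1 and 0 at day 70 and no counts at day 5 in whole brain of the same line. In ensheathing glia it had 37 counts over 6 of 12 libraries, against 1 count in 1 of 12 whole brain libraries. The counts came from few libraries. With 1 count in the 6 whole brain libraries of the line, it passed the filter through the astrocyte-like libraries alone, so its call there is no test of a difference and its fitted fold change depends on the prior count. The call was lost without day 5 replicate 3. It was left out of the test in ensheathing glia by the filter.

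Among genes that act with the proteasome, a list of candidate regulators of subunit transcription was counted first. In ensheathing glia 3 of 7 measured members rose with age and none fell, with a median log2 difference of 0.39, where 9.41% of all genes rose and 8.82% fell. Xrp1, a stress-induced transcription factor, had 2614, 4269 and 5153 normalised counts at day 70 (lowest, median and highest), against 1127, 1548 and 2007 at day 5, and rose by 1.30 on the log2 scale. The ages did not overlap. The ATF4 homologue crc rose by 0.54 and rngo, the fly homologue of Ddi1, by 0.61. Xrp1 also rose in astrocyte-like glia by 1.60 and in whole brain by 1.29 on the log2 scale. The transcription factor cnc, the fly Nrf gene, did not pass in the combined test, with a log2 difference of 0.37 (adjusted p 0.155 in edgeR). Its partner maf-S fell in whole brain by 0.35 on the log2 scale.

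Of the 5 ubiquitin and E1 genes 3 rose with age in ensheathing glia, where 9.41% of all genes did so. They were RpL40 and RpS27A, which encode ubiquitin fused to a ribosomal protein, by 0.83 and 0.64 on the log2 scale, and the polyubiquitin gene Ubi-p63E by 0.47. In whole brain Ubi-p63E rose by 0.32. None of the 5 passed in astrocyte-like glia.

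None of the 8 measured regulators and assembly factors passed with age in ensheathing glia, astrocyte-like glia or whole brain (1, 1 and 0 at an unadjusted p below 0.05 in edgeR), and their median log2 differences were 0.30, 0.34 and -0.02. Over all genes, 2897 of 9265, 1871 of 8585 and 3276 of 9650 had an unadjusted p below 0.05 in edgeR. Of the 7 measured shuttle factors and p97 partners, Ufd1-like fell in whole brain by 0.57 on the log2 scale, and none passed in the sorted types when driver lines were combined. Against whole brain, the assembly chaperone Pomp was higher in ensheathing glia by 0.60 and in astrocyte-like glia by 0.72 on the log2 scale, and TER94, the p97 ATPase, by 0.69 and 0.73, where 25.8% and 23.8% of all genes were higher. Both were named after their values were seen. The summed shuttle list overlapped whole brain of the same lines in both types (2880 to 4631 normalised counts in astrocyte-like glia, against 3113 to 3579). The summed list of regulators and assembly factors overlapped in ensheathing glia but not in astrocyte-like glia (2095 to 2974, against 1905 to 2058).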

How the data were processed

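RNA-seq counts per gene of 36 libraries were analysed. To make the deposited counts, the authors mapped Smart-seq3 reads to dm6 (STAR 2.7.3a), kept properly paired reads, and counted them per FlyBase gene in the union mode of summarizeOverlaps, so that reads over several genes were dropped. Collapsing of molecular identifiers and use of strand are not given in the sources used here. Intervals and floors cover counting error only.

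Libraries were grouped by tissue, driver line and age from their labels. Total counts were 912285 to 17060052 per library. Of 36 replicate pairs none was identical. Replicates are separate samples by their labels, and p-values measure the spread between them.

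edgeR 4.0.16 in R 4.3.3 gave log2 differences and two-sided p-values (quasi-likelihood test, TMM, default filter on low counts, Benjamini-Hochberg adjustment over all genes tested, calls at an adjusted p below 0.05). The line entered as a covariate when several were fitted together, with exceptions. The tests of level between the sorted types, and between whole brain of the ensheathing lines and of GMR86E01, had age alone as a covariate. In these the difference between GMR56F03 and GMR10E12 was part of the spread. A standard error is the log2 difference over the square root of F, so it carries nothing beyond the test. Positions and exon lengths are from an Ensembl annotation on dm6 coordinates, which matched all 47 genes. The fit was tested on simulated data.

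By rule, values in every library are given for the catalytic subunits, for the 3 called members with the smallest adjusted p per direction with age, for the 2 with the smallest in the tests of a difference in age effect or between sorted types, and for the largest and smallest difference from whole brain. Prosalpha2 and Prosbeta6 in astrocyte-like glia, Rpn7 in astrocyte-like glia, the uncalled Rpn1, Rpn10, Rpn11 and Rpn13, and cnc, Pomp and TER94 were named after their values were seen. The members and lists were chosen with earlier results of these data known.

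The study states that the unsorted suspensions came from the same brains as the sorted cells. That libraries of the same number share their brains is not stated, and the replicate block assumes it. Deviations of same-numbered libraries correlated at 0.0696 on average over 18 pairs (-0.0137 to 0.222). Between ages a number stands for different flies. In tests of age within a tissue the block adds the number as a covariate and pairs no brains. Alternatives were DESeq2 1.42.0, its size factors or total counts as the scale, no filter or at least 10 counts in every library, the replicate block, a single fit of the 36 libraries, leaving out the line covariate, and each library left out in turn. Fits without the 4 libraries under 2000000 counts and other scalings of the summed level were chosen after seeing the data. Sequences were not used here.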

Additional observations from a re-analysis of the deposited data

Results flagged for a closer look

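In groups of 6 or 9 libraries, a highest or lowest library far from the nearest other was looked for by Dixon's criterion in 60 groups, of which chance flags about 1 in 20. Of the 12 flags, 7 were the shallow GMR10E12 whole brain library of day 70, replicate 1 (912285 counts). It had 1238 normalised counts of Prosalpha2, 689 of Prosbeta4, 274 of Prosalpha6, 1753 of Rpn2 and 706 of Rpt1, each above the other 8 whole brain libraries of day 70, and 74.8 of Rpn9, below them. Its summed level of the 47 genes was 11156, the highest of the 9.

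The other 5 flags were spread over libraries. Prosbeta4 stood out in ensheathing GMR56F03 day 5 replicate 3 (280 normalised counts, next 219). In whole brain of day 5, Prosalpha3 stood out in GMR86E01 replicate 2 (317, next 264), Prosbeta6 in GMR86E01 replicate 1 (276, next 244), Rpn5 in GMR86E01 replicate 3 (425, next 347) and, below the others, Prosbeta3 in GMR10E12 replicate 2 (166, next 205).

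For 2 members the age effect differed between tissues by the interaction test in edgeR. Prosbeta5 differed between ensheathing glia and whole brain by 0.72 on the log2 scale (adjusted p 0.0195). Prosbeta6 differed between ensheathing and astrocyte-like glia by 1.18 (adjusted p 0.0223).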

How the results depend on the processing

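Counts below are members called, with the value reported above first. Ensheathing glia with age (11) gave 7 in 1 fit over all 36 libraries, without the line covariate and without the libraries under 2000000 counts, and 7 to 12 with 1 library left out. GMR56F03 alone (3) gave 5 with total counts as the scale, 1 in the single fit, 1 without the shallow libraries, and 1 to 6 with 1 library left out. GMR10E12 alone (2) gave 4 by DESeq2, 1 with total counts, 0 with the replicate block, 5 in the single fit, and 0 to 1 with 1 library left out. Astrocyte-like glia with age (0) gave 2 with total counts and 3 in the single fit. Whole brain with age (1) gave 2 by DESeq2, with total counts (both higher), with the replicate block and without the line covariate, 0 in the single fit, 4 without the shallow libraries, and 1 to 5 with 1 library left out. Whole brain of GMR56F03 (0) gave 1 with total counts, and that of GMR10E12 (0) gave 1 in the single fit.

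The difference in age effect between ensheathing glia and whole brain (1) gave 5 by DESeq2, 2 with DESeq2 scaling in edgeR, 0 with total counts, 0 without a filter, 2 with at least 10 counts in every library, and 0 to 4 with 1 library left out. That between astrocyte-like glia and whole brain (0) gave 1 by DESeq2 and 0 to 1 with 1 left out. That between the sorted types (1) gave 3 by DESeq2, 2 with DESeq2 scaling, 2 in the single fit, 0 without the shallow libraries, and 0 to 2 with 1 left out. Astrocyte-like glia against whole brain (27) gave 10 with total counts and 23 to 28 with 1 left out. Between the sorted types (0), DESeq2 and the single fit gave 1, and 0 to 1 were called with 1 left out. In whole brain with age, Prosbeta1 reversed to 0.0208 with total counts and 0.0485 without the shallow libraries, and Prosbeta2 to 0.0347 and 0.0505. The cause was not tested.

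With the replicate block, which pairs sorted with whole brain libraries, 26 members were called in ensheathing glia against whole brain and 23 in astrocyte-like glia against whole brain, where Prosbeta6, Rpn6, Rpn9 and Rpt3 lost their call. With age in ensheathing glia the block was the replicate number alone, which pairs no brains. There 9 were called, without Rpn2 and Rpt1. Depth limits the copies, which held 0.256% of the member counts.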
